A study of Rattus norvegicus with 90 samples.

Results

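Among the 40071 rat transcripts in the deposited tables, 181 were raised in both the liver and the kidney by 8 h after the high dose of thioacetamide, and these transcripts are described here at the low dose, at 24 h, and in the heart. The members were chosen by measured values. For each transcript, CPM, the estimated counts scaled to a common total per library, was computed over the transcripts of a library. L was then taken as log2 of the ratio of mean CPM + 1 in the high-dose group to mean CPM + 1 in the vehicle group of the same organ at 8 h, minus the median of that value over transcripts with a vehicle CPM of 1 or more. A transcript was a member if L was at least 1, a doubling on this scale, in both organs. L was at least 1 for 1794 transcripts in the liver and for 319 in the kidney. Because the 8 h high-dose values chose the members, they are given as a description and carry no test. Of these transcripts, 57 had a mean vehicle CPM under 1 in the liver and 27 in the kidney, so part of the set lay close to the limit of detection before exposure.

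The samples came from adult male Sprague-Dawley rats given 1 intraperitoneal injection of saline (vehicle, 3 ml/kg), of 25 mg/kg thioacetamide (low dose), or of 100 mg/kg thioacetamide (high dose). Liver, whole kidney, and whole heart were collected 8 or 24 h later, which makes 18 groups of 5 samples and 90 libraries in all. Groups differed only in organ, time, and dose in the labels, and no group carried a transgene or a deletion. By the study's methods, the 8 h rats were dosed in the morning and had no food, whereas the 24 h rats were dosed in the late afternoon and fed until food was removed for the end of the exposure, and all were sampled at the same hour, so time after exposure cannot be told apart from feeding and the hour of dosing in a comparison of 8 with 24 h. The 3 organs came from the same rats by the study's methods, but the labels do not say which libraries share a rat, and the comparison of liver with kidney below treats them as independent.

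Thioacetamide is a hepatotoxin that becomes harmful after oxidation by cytochrome P450 and flavin-containing monooxygenases. The reactive product binds proteins and lipids, and in the liver the injury is greatest around the central veins, where the oxidizing enzymes are abundant. The kidney tubules also express such enzymes. In cells under chemical stress, the first hours are known for the induction of immediate early genes, antioxidant and drug-metabolizing genes, genes of the p53 and ATF4 responses, and heat shock genes. Whether the members belong to any of these groups could not be looked up, because neither the files nor the reference tables used here pair the Ensembl transcript identifiers with gene names. For the same reason the organ labels were not checked against marker genes, transcripts of 1 gene were not joined, and no gene or promoter sequence is printed.

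Libraries held between 13430000 and 34299100 estimated counts on transcripts, and a further 4.08% to 28.9% of a library's counts lay on genomic intervals that the tables also list. That share ranged widely within groups, from 4.08% to 23.6% in the vehicle livers and from 4.45% to 28.9% in the high-dose livers at 8 h, and its part in the results was not tested. Library MS-1, labelled as a vehicle liver at 24 h, and library MS-9, labelled as a low-dose liver at 8 h, held nearly the same counts. Of 15797 transcripts that reached 10 counts in one or both, 99.96% were within 1 count of each other, as were all 181 members. The set bears directly on this pair. In MS-1, 169 of the 181 members were higher than in each of the other 4 vehicle livers at 24 h, against 50.4% of the transcripts with a mean of 1 CPM or more, and the median member stood 1.95 above their mean on the log2(CPM + 1) scale. In MS-9, 167 members lay above all 5 vehicle livers at 8 h, and 37 lay within the range of the other 4 low-dose livers. The rule used those vehicle livers, so the first count is a description. No share over all transcripts was computed for either count in MS-9. Over the members, the median of log2(CPM + 1) was 4.43 in both MS-1 and MS-9. It was 1.73 to 2.26 in the other 4 vehicle livers at 24 h. In the other 4 low-dose livers at 8 h it was 3.47 to 3.73. Which label is right was not tested. Counts and medians for the liver at 24 h are therefore given with and without MS-1. For the low-dose liver at 8 h the median L and the counts or shares of members are given with and without MS-9. Ratios of low-dose to high-dose L, and shares over all transcripts there, are given with MS-9 only.

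**Figure D1:**
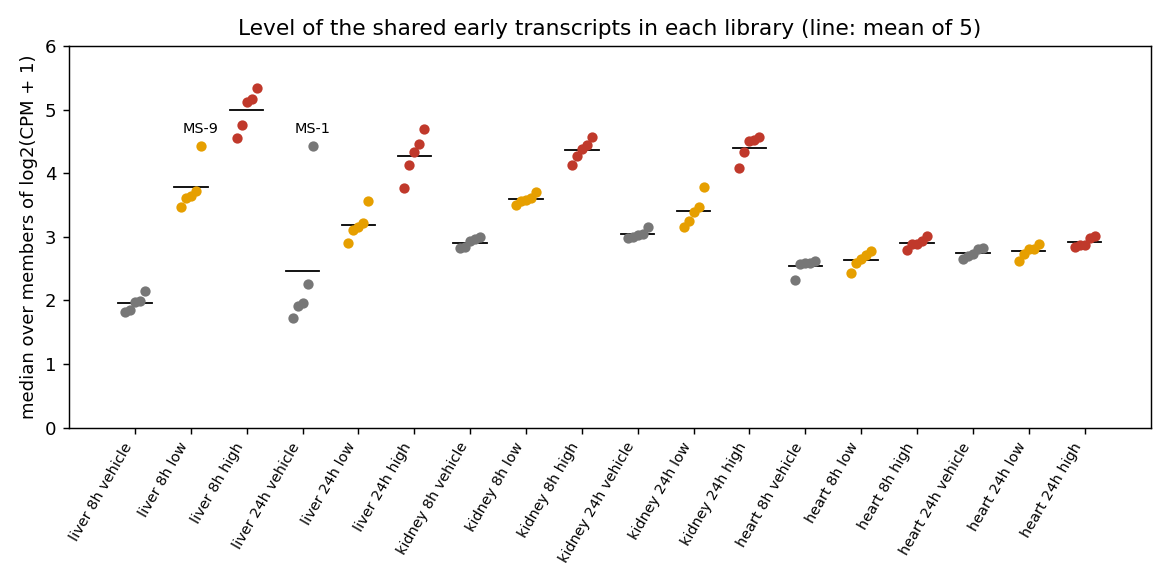
Median of log2(CPM + 1) over the 181 members in each of the 90 libraries, by organ, time, and dose, with 1 point per library and a line at the mean of the 5 libraries of a group. At 8 h the vehicle livers lay between 1.82 and 2.14 and the high-dose livers between 4.55 and 5.35, the heart groups all lay between 2.32 and 3.02, and MS-1 and MS-9 both stood at 4.43.

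At 8 h L was larger in the liver than in the kidney for most members. In whole organs, fewer or more cells of a type and less or more RNA per cell cannot be told apart, here and in each comparison that follows. The median L was 2.32 in the liver, with quartiles of 1.59 and 3.36 and a maximum of 6.46. In the kidney the median was 1.35, with quartiles of 1.13 and 1.90 and a maximum of 4.88. L was the larger in the liver for 157 of the 181. Together the members took a mean of 2175 CPM of the vehicle liver and 17119.9 CPM of the high-dose liver, and 3485 and 10356 CPM of the kidney. Every high-dose sample lay above every vehicle sample for 164 members in the liver, for 156 in the kidney, and for 151 in both. Of all transcripts with a count, 14.8% did so in the liver and 3.69% in the kidney, which is given for scale only, since the rule used these samples.

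**Figure D2:**
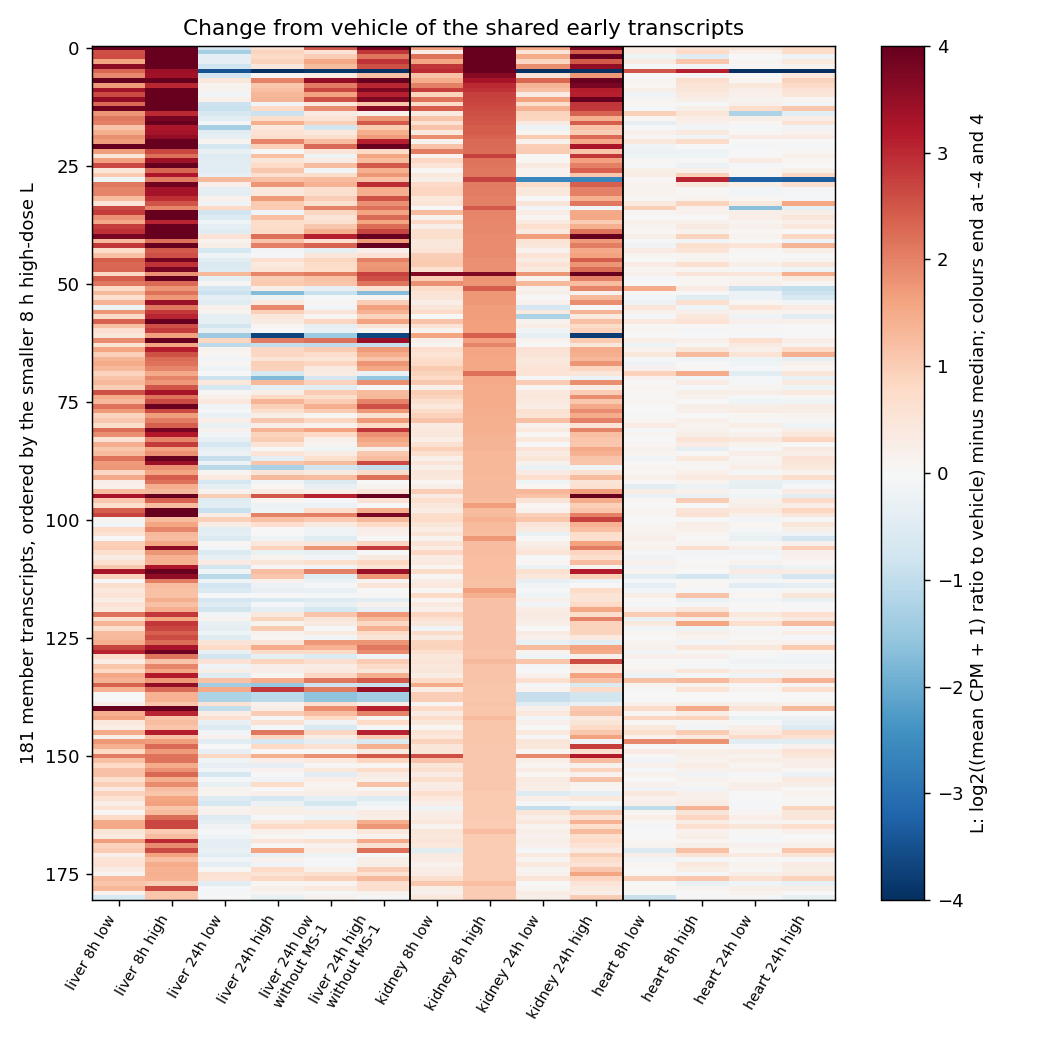
L of the 181 members (rows, ordered by the smaller of the liver and kidney values at 8 h after the high dose) in each treated group against its own vehicle group (columns), with the liver at 24 h also shown without MS-1; red is higher and blue lower than vehicle. The median L was 2.32 in the liver and 1.35 in the kidney at 8 h after the high dose, and 0.18 in the heart.

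The member with the largest shared response was ENSRNOT00000005085, a transcript of 1888 bases. In the vehicle livers at 8 h its CPM was 1.64, 3.46, 1.34, 0.971, and 1.23, and in the high-dose livers 185, 264, 375, 144, and 269. In the kidney the vehicle samples held 2.60, 3.25, 1.16, 2.21, and 2.29 CPM and the high-dose samples 71.6, 93.4, 121, 70.7, and 85.3. No treated sample came near the vehicle samples in either organ, and L was 6.46 in the liver and 4.81 in the kidney. ENSRNOT00000010712 followed, with L of 5.76 and 4.18. Its CPM went from 0.839, 0.842, 0.955, 0.127, and 0.294 to 54.3, 114, 118, 70.6, and 90.1 in the liver. The kidney values went from 1.63, 1.20, 1.01, 1.29, and 1.28 to 47.8, 30.4, 48.5, 43.2, and 24.3. Both transcripts were scarce in the vehicle samples of both organs, and no treated sample overlapped with them.

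ENSRNOT00000016768 and ENSRNOT00000026652 differed between the organs in their starting levels. ENSRNOT00000016768 stood at 23.1, 40.7, 21, 36.4, and 41.4 CPM in the vehicle livers and at 415, 613, 802, 473, and 541 in the high-dose livers. Kidney samples stood at 6.76, 5.60, 7.56, 8.07, and 8.01 and 147, 132, 137, 126, and 123 CPM. The vehicle liver thus held more of it than the vehicle kidney, without overlap, and L was 4.03 and 4.08. ENSRNOT00000026652 had the reverse order, with 0.839, 1.22, 1.26, 0.760, and 1.29 CPM in the vehicle livers and 11.6, 10.4, 18.6, 14.7, and 11.9 in the vehicle kidneys. After the high dose it reached 67, 124, 153, 85.4, and 92.2 CPM in the liver and 246, 209, 238, 207, and 216 in the kidney, with L of 5.61 and 4.01. In the heart, ENSRNOT00000026652 stayed between 0.199 and 1.11 CPM in all 30 libraries.

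ENSRNOT00000029994 was a transcript of the heart, where it held 444, 489, 525, 415, and 489 CPM in the vehicle samples at 8 h. In the vehicle livers it was at 0.120, 0.0935, 0.130, 0.338, and 0.0735 CPM and in the vehicle kidneys at 0.361, 0.750, 0.426, 0.229, and 0.102. After the high dose the liver samples held 7.75, 9.70, 16.9, 7.23, and 14.8 CPM and the kidney samples 7.63, 12.4, 21.1, 16.3, and 19.7. All treated samples of the liver and kidney were above all vehicle samples, yet far under the heart, where the high-dose samples held 563, 466, 526, 462, and 477 CPM and overlapped with vehicle. ENSRNOT00000026303 went from 7.55, 21.6, 21.1, 54.9, and 23.6 to 313, 497, 679.6, 314, and 456 CPM in the liver. Kidney CPM went from 6.72, 9.40, 6.87, 8.99, and 6.74 to 313, 209.7, 226, 256, and 231 CPM. The vehicle livers ranged more widely than the vehicle kidneys, and all lay far under the treated samples.

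The next 3 members by the smaller of the 2 values of L, leaving aside 1 that only some libraries carried, were ENSRNOT00000000628, ENSRNOT00000006188, and ENSRNOT00000017181. ENSRNOT00000000628 was at 2.14, 4.09, 2.20, 3.18, and 4.77 CPM in vehicle and 111, 243, 388, 159, and 253 CPM in high-dose livers. In the kidney it was at 3.81, 2.95, 4.18, 4.80, and 4.22 and 33.6, 45.2, 66.5, 43.9, and 42.7 CPM. The groups did not overlap in either organ, and L was 5.71 in the liver and 3.30 in the kidney. ENSRNOT00000006188 was at 4.88, 12.3, 17.4, 43.0, and 7.75 CPM in vehicle and 110.4, 162, 189.6, 126, and 171 CPM in high-dose livers. In the kidney it was at 6.76, 10.05, 7.08, 7.20, and 6.74 and 50.1, 69.1, 73.4, 60.9, and 68.2 CPM. Its vehicle livers were spread over a wide range and its vehicle kidneys were not. ENSRNOT00000017181 was at 2.52, 3.41, 2.61, 6.34, and 2.76 CPM in vehicle and 77.1, 121, 146, 85.1, and 160.2 CPM in high-dose livers. In the kidney it was at 14.8, 11.7, 17.5, 13.8, and 12.9 and 88.1, 106.03, 136, 85, and 124 CPM. After the high dose its levels in the 2 organs lay in the same range, from starting levels that did not overlap.

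**Figure D3:**
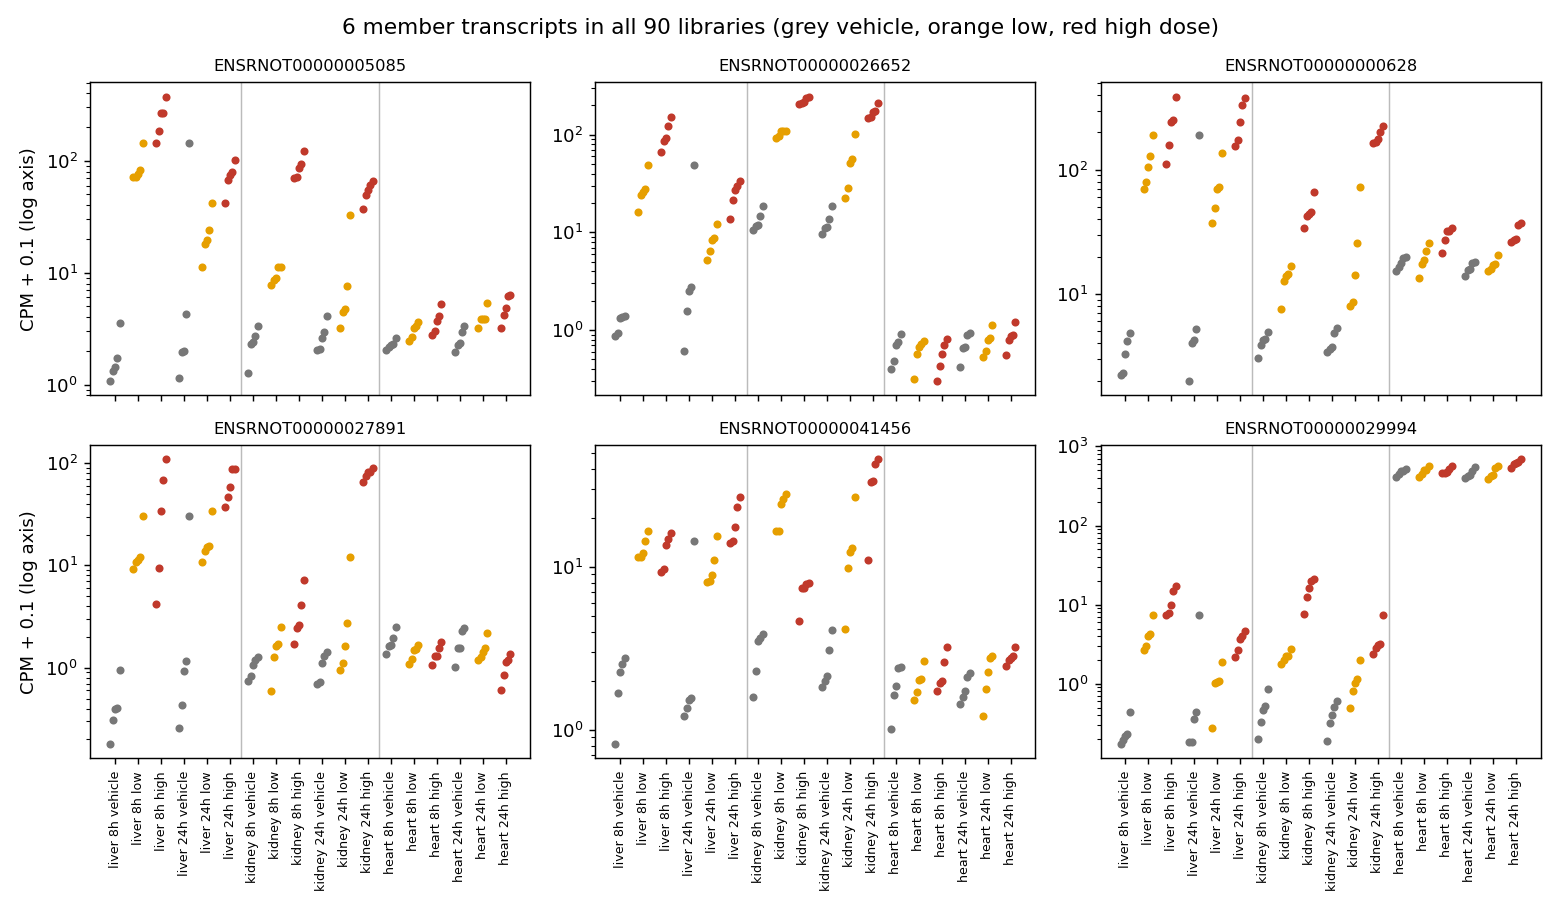
CPM + 0.1 (log axis) of 6 members in all 90 libraries by organ, time, and dose, 1 point per library. MS-1 is the highest grey point of the liver at 24 h at 191 CPM for ENSRNOT00000000628 and 30.0 CPM for ENSRNOT00000027891, the low dose (orange) gives more ENSRNOT00000041456 than the high dose in kidneys at 8 h, and ENSRNOT00000029994 is at 415 to 525 CPM in the vehicle hearts at 8 h.

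The members with the highest vehicle CPM had smaller values of L than those named so far. ENSRNOT00000020225 had the highest in both organs. Its CPM was 230.4, 140.4, 159, 241, and 135 in vehicle livers and 1045, 821, 833, 736, and 965 in high-dose livers. Kidney CPM was 539, 745, 472, 444, and 451 and 1060.4, 1104, 1195, 968, and 1384. The groups were apart in both organs, with L of 2.22 and 1.16. ENSRNOT00000050223 followed, with L of 2.38 and 1.16, and its kidney CPM was 256, 246, 232, 235, and 272 in vehicle and 548, 475, 572, 509.9, and 573 in high-dose samples. Scaled by length, as TPM, the vehicle means of these transcripts were 107 and 103.3 in the liver, and 279 and 164 in the kidney. ENSRNOT00000020206 in the liver and ENSRNOT00000026470 in the kidney were next by CPM, with L of 1.45 and 1.004 in those organs. ENSRNOT00000026470 was also among the 3 members just inside the threshold, with ENSRNOT00000090754 and ENSRNOT00000040060, for which the kidney values of L were 1.003 and 1.002. The 3 transcripts just outside were ENSRNOT00000060698, ENSRNOT00000018511, and ENSRNOT00000026657, with kidney values of 0.998, 0.995, and 0.992, so that the kidney set the limit for all 6.

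The members had a median length of 1941 bases against 2214 for the 16723 transcripts with a mean vehicle CPM of 1 or more, and ranged from 64 to 6413. The vehicle level at 8 h was highest in the kidney for 92 members, in the heart for 60, and in the liver for 29. The median vehicle CPM was 6.54, 4.83, and 3.09 in that order. The liver and kidney vehicle values entered the rule, and the counts by organ were not taken over all transcripts, so they are a description. 4 members formed 2 pairs with identical estimated counts in all libraries, ENSRNOT00000080585 with ENSRNOT00000077454 and ENSRNOT00000051449 with ENSRNOT00000040481, so the counts cannot separate the transcripts of a pair. Other members may also share reads with similar transcripts, which was not tested.

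At the low dose most members were also above vehicle at 8 h, with smaller values of L. These values share the vehicle samples that chose the members and were not tested. The median L was 1.28 in the liver, 1.12 without MS-9, and 0.52 in the kidney, against 0 for all transcripts of 1 CPM or more by construction. As a ratio to L after the high dose, the median member reached 0.51 in the liver, with MS-9 kept, and 0.38 in the kidney. L was at least 1 for 60.2% of the members in the low-dose liver (55.2% without MS-9) and for 17.7% in the low-dose kidney, and for 2.55% and 0.331% of all transcripts with a count. All 5 low-dose samples lay above all 5 vehicle samples for 140 members in the liver, 141 without MS-9, and for 64 in the kidney. The same held for 16.2% of all transcripts with a count in the liver and 2.64% in the kidney. These counts compare CPM without the median that L takes off. With MS-9 kept, that median was 0.247 in the low-dose liver and 0.0029 in the low-dose kidney at 8 h.

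In a few members the low dose gave as much as the high dose or more. ENSRNOT00000041456 had the highest ratio of the low to the high response summed over both organs, 1.42. Its kidney CPM was 3.43, 2.20, 3.78, 1.49, and 3.57 in vehicle, 26, 16.6, 24.3, 16.6, and 28.1 in low-dose, and 7.29, 7.33, 7.73, 4.53, and 7.84 in high-dose samples. All low-dose kidneys therefore stood above all high-dose kidneys, which stood above all vehicle kidneys. In the liver its low-dose samples (11.4 to 16.6 CPM) overlapped with the high-dose samples (9.24 to 16 CPM). ENSRNOT00000003572 and ENSRNOT00000087958 came next, with ratios of 0.985 and 0.981, and the range of ENSRNOT00000003572 in the high-dose livers (0 to 4.95 CPM) overlapped with vehicle (0 to 3.49 CPM). At the other end, ENSRNOT00000005383 had a ratio of 0.0512, with 23.7 to 35.7 CPM in low-dose and 71.5 to 94.3 CPM in high-dose kidneys. The ratios of ENSRNOT00000040060 and ENSRNOT00000016152, -0.0978 and 0.0181, were lower still, and both transcripts varied widely among the samples of a group.

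For some members the group means came from few libraries or from widely spread ones. Without the 2 highest high-dose libraries L was under 1 for 20 members in the liver and for 59 in the kidney. Leaving these libraries out can only lower L. Described here are 3 members with such values. One was ENSRNOT00000057587, a transcript of 348 bases and the sixth member by the smaller L. It was above 10 CPM in 17 of the 90 libraries, where it held 24.9 to 71.9 CPM, and no more than 4.53 CPM in the rest. The 17 libraries were spread alike in the 3 organs. At 8 h they were 2 of 5 high-dose, 1 of 5 low-dose, and no vehicle samples in each organ. At 24 h they were 3 of 5 vehicle samples in the kidney, 3 in the heart, and 2 in the liver, where MS-1 held none, and no treated sample.

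ENSRNOT00000016152 was above 10 CPM in 5 libraries, at 24.8 to 125 CPM, and at 4.73 CPM or less elsewhere. These were 1 of 5 high-dose samples at 8 h in each organ and 1 of 5 vehicle samples at 24 h in the kidney and in the heart. ENSRNOT00000066282 was above 10 CPM in 38 libraries of the liver and kidney and at no more than 0.0457 CPM in the heart. At 8 h it held 95.6, 8.93, 10.6, 6.84, and 63.5 CPM in vehicle and 261, 157, 15.6, 89.9, and 80.9 CPM in high-dose livers. Kidneys held 16.8, 0, 0, 0, and 9.70 CPM in vehicle and 50.7, 34.5, 0, 26.8, and 42.8 CPM in high-dose samples. Vehicle and treated samples overlapped in both organs.

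**Figure D4:**
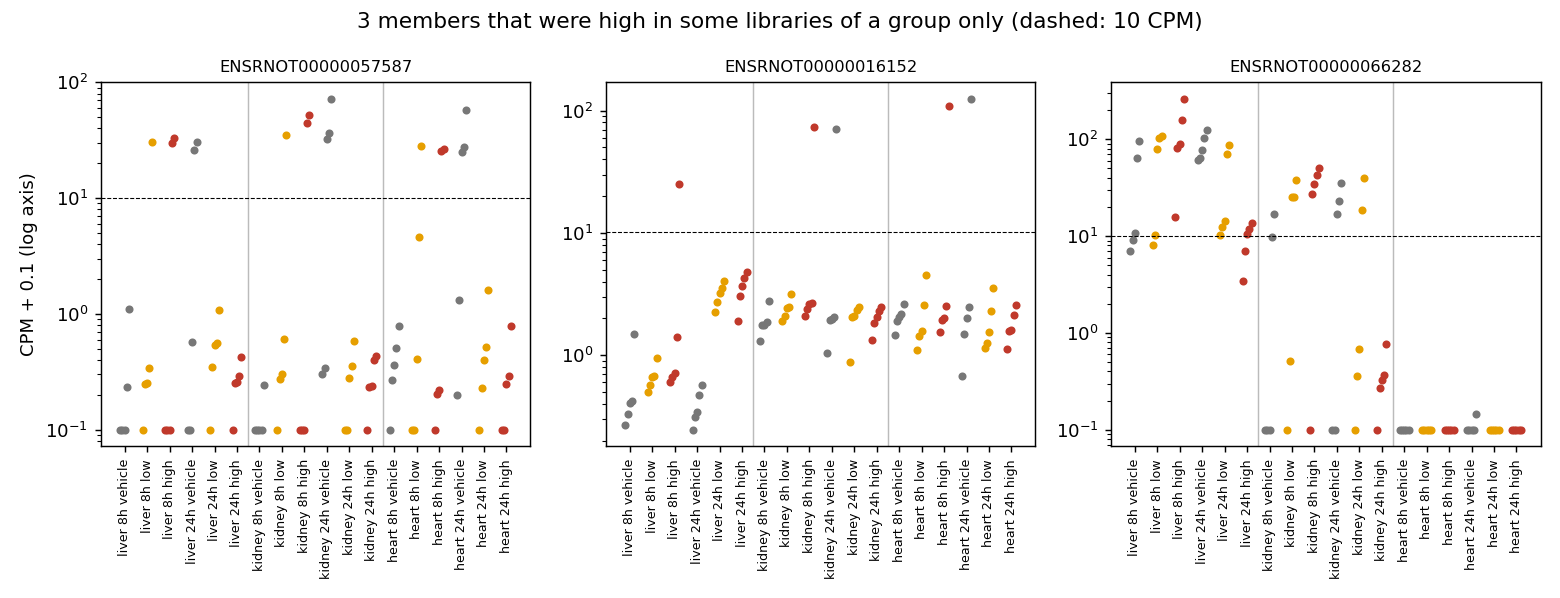
CPM + 0.1 (log axis) of 3 members in all 90 libraries by organ, time, and dose, 1 point per library, with a dashed line at 10 CPM. ENSRNOT00000057587 is above the line in 17 libraries, ENSRNOT00000016152 in 5, and ENSRNOT00000066282 in 38, and in ENSRNOT00000057587 no library lies between 4.53 and 24.9 CPM.

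The question at 24 h was whether the transcripts were still raised in samples that did not choose them. In the kidney most of those tested were. After the high dose 59.9% of the 177 members that passed the filter on low counts rose and 0 fell, where 2.15% of all transcripts tested rose and 2.04% fell. A transcript was said to have risen or fallen if edgeR's quasi-likelihood test gave a Benjamini-Hochberg adjusted p over all transcripts of no more than 0.01 and the log2 fold change was at least 0.866 in size. 4 members did not pass the filter, and since a member may pass it through the group where it is high, the count is no statement on all members. The median log2 fold change over the tested members was 1.47 (quartiles 0.77 and 2.21), against 0.02 over all transcripts tested. At an unadjusted p under 0.05, 139 members were higher and 4 lower (14.5% and 13.6% of all transcripts tested), and DESeq2 called none lower.

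In the kidney 59 members had a larger L at 24 h than at 8 h, which was not tested. In the liver 2 did with MS-1 kept and 7 without it. A high L at 8 h chose the members, so these counts are a description, without a share over all transcripts. The 4 members that rose most in the kidney at 24 h without overlap were ENSRNOT00000027891, ENSRNOT00000091731, ENSRNOT00000019192, and ENSRNOT00000000628. ENSRNOT00000027891 was at 0.619, 1.21, 1.02, 1.33, and 0.589 CPM in vehicle and 82.4, 82.2, 75.1, 88.9, and 64.9 CPM in high-dose kidneys, a log2 fold change of 6.23 (SE 0.23, adjusted p = 7.6e-08). At 8 h its high-dose kidneys had held no more than 7.13 CPM. ENSRNOT00000091731 was at 0.551, 0.613, 0.758, 0.347, and 0.738 CPM in vehicle and 26.1, 33.6, 45.9, 20.6, and 41.6 CPM in high-dose kidneys, a log2 fold change of 5.67 (SE 0.28, adjusted p = 8.0e-07). ENSRNOT00000019192 was at 3.18, 8.67, 5.61, 4.27, and 4.89 CPM in vehicle and 315, 349, 239.5, 241, and 260.0 CPM in high-dose kidneys, a log2 fold change of 5.60 (SE 0.28, adjusted p = 8.0e-07). For ENSRNOT00000000628 the vehicle kidneys held 4.74, 5.17, 3.28, 3.48, and 3.62 CPM and the high-dose kidneys 164, 166, 178, 223, and 201, a log2 fold change of 5.40 (SE 0.19, adjusted p = 4.8e-08). In these 4 transcripts all high-dose kidneys at 24 h lay above all high-dose kidneys at 8 h.

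Other members were not called at 24 h. The member with the highest vehicle CPM, ENSRNOT00000020225, held 815, 457, 573, 719.7, and 514 CPM in vehicle and 502, 487, 351, 603, and 455 CPM in high-dose kidneys at 24 h, and the groups overlapped, with a log2 fold change of -0.47 (SE 0.19, adjusted p = 0.141). Of the 34 members with L of at least 2 in both organs at 8 h, 30 rose in the kidney at 24 h, and of the other 147, 76 did, a difference that was not tested. The 4 members that did not pass the filter there are counted as not having risen. Of all transcripts tested, 2.15% rose.

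In the liver at 24 h the result turned on MS-1. With all 5 vehicle libraries, 6 of 177 tested members rose after the high dose and 4 fell, where 7.44% and 8.85% of all transcripts did, and the median log2 fold change was 0.75. Without MS-1, 59.9% of 177 rose and 4 fell, against 13.2% and 13.6% of all transcripts, and the median was 1.53. The median over all transcripts tested was 0.10 with and 0.04 without MS-1. With MS-1 kept, limma on log2(TPM + 1) called 83 members higher, and 31.3% of all transcripts. It called 2.66% of all transcripts lower, and it used TPM with no further scaling between libraries. By edgeR, leaving out any other single liver library gave 3 to 6 members that rose.

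The members named in the liver, with and without MS-1, were the following. ENSRNOT00000077186 held 4.39, 0.724, 0.112, 0.177, and 0.584 CPM in vehicle livers, the first of these being MS-1, and 23.1, 29.4, 21.9, 13, and 29.1 CPM in high-dose livers. Its log2 fold change was 3.77 (SE 0.71, adjusted p = 0.00234) with MS-1 and 5.02 (SE 0.42, adjusted p = 1.3e-05) without it. ENSRNOT00000043959 held 0.884, 0.0528, 0.146, 0.168, and 0.0648 CPM in vehicle livers and 3.54, 4.003, 3.49, 2.07, and 3.84 CPM in high-dose livers, with MS-1 again first. Its log2 fold change was 3.08 (SE 0.57, adjusted p = 0.00218) and, without MS-1, 3.96 (SE 0.38, adjusted p = 2.8e-05). In both transcripts MS-1 lay above the other vehicle livers and under every high-dose liver. ENSRNOT00000005553 held 1.02, 0.106, 0.146, 0.252, and 0.205 CPM in vehicle and 2.44, 3.81, 2.87, 1.21, and 3.89 CPM in high-dose livers, with a log2 fold change of 2.43 and 3.05 without MS-1. ENSRNOT00000016152 also rose, at 0.476, 0.369, 0.146, 0.210, and 0.246 CPM in vehicle and 3.59, 4.15, 2.96, 1.81, and 4.73 CPM in high-dose livers, with log2 fold changes of 2.90 and 2.94. In the last of these, MS-1 was the highest vehicle liver by a small margin.

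For other members the vehicle livers were near 0 once MS-1 was set aside. ENSRNOT00000072176 held 3.17, 3.23, 2.53, 3.25, and 2.81 CPM in high-dose livers, 2.49 CPM in MS-1, and under 1 count in all in the other 4 vehicle livers, at least 87.6-fold higher if 3 counts over those 4 libraries are taken as the limit of detection. The limit covers counting error only. ENSRNOT00000082209 was listed at 0 CPM in the 4 other vehicle livers, at 6.96 CPM in MS-1, and at 0.00718 to 11.5 CPM in the high-dose livers. ENSRNOT00000091731 held 38.8, 0.269, 0.604, 0.428, and 0.694 CPM in vehicle livers and 35, 88.1, 60.8, 42.2, and 95.3 CPM in high-dose livers, where MS-1 lay within the high-dose range. Its log2 fold change was 6.10 (SE 0.38, adjusted p = 4.3e-06) without MS-1 and 2.53 (SE 1.15, adjusted p = 0.104) with it. ENSRNOT00000000628 held 191, 3.95, 5.09, 1.88, and 4.15 CPM and 154, 333, 244, 172, and 378 CPM. Without MS-1 its log2 fold change was 5.21 (SE 0.34, adjusted p = 5.2e-06), and with MS-1 it was 2.18 (SE 1.11, adjusted p = 0.143). ENSRNOT00000000792, from 0.0420 to 7.31 CPM in vehicle, MS-1 being the highest, to 5.43 to 20.6 CPM, changed by 6.50 without MS-1 and by 2.76 (adjusted p = 0.0684) with it.

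The members that fell in the high-dose liver at 24 h were not affected in this way. ENSRNOT00000055333 had been at 25.0 to 33.9 CPM in high-dose livers at 8 h. At 24 h it held 10.6, 8.14, 7.99, 9.42, and 7.87 CPM in vehicle and 1.04, 5.09, 4.67, 2.81, and 4.04 CPM in high-dose livers, and every treated sample lay under every vehicle sample. Its log2 fold change was -2.02 (SE 0.32, adjusted p = 0.00104) with MS-1 and -2.13 (SE 0.34, adjusted p = 5.4e-04) without it. ENSRNOT00000066282 fell by 3.83 on the log2 scale, and by 3.94 without MS-1, with 61.1 to 123 CPM in vehicle and 3.38 to 13.6 CPM in high-dose livers. The other 2, ENSRNOT00000012537 and ENSRNOT00000028965, changed by -1.79 and -1.15, and by -1.74 and -1.19 without MS-1.

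The effects of the high dose at 24 h were then compared between liver and kidney in 1 model, as the liver minus the kidney log2 fold change, with the adjusted p of 0.01 as the only threshold. With MS-1, 15 of 181 members differed, 14 with the lower change in the liver and 1 with the higher, against 7.75% of all transcripts. Without MS-1, 35 differed, 15 lower and 20 higher in the liver, against 13.7% of all transcripts. The median difference over the members was -0.72 with MS-1 and 0.02 without it. The count of members with the lower change in the liver thus changed little without MS-1, and the count with the higher change in the liver grew. Over all transcripts both counts grew. With MS-1, 770 of 20156 were lower and 793 higher in the liver, and without it 1450 and 1375 of 20557. Without MS-1, 84 members rose in both organs, which is 79.2% of those that rose in the kidney and the same share of those in the liver. Of all transcripts that rose in the kidney, 60.2% also rose in the liver without MS-1. Of all transcripts that rose in the liver without MS-1, 10.8% also rose in the kidney. With MS-1 kept, 4 members rose in both, or 3.77% of those in the kidney, against 13.3% of all transcripts that rose there. Without MS-1, 53 members rose in neither.

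**Figure D5:**
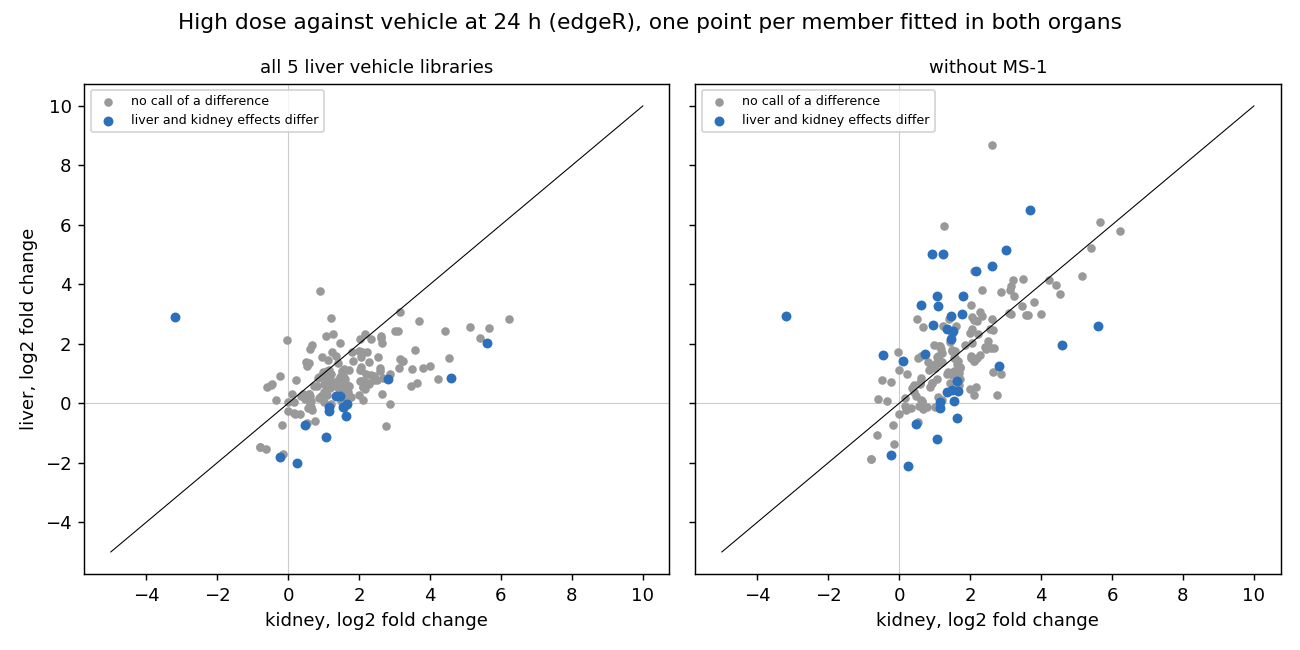
Log2 fold change (edgeR) of the high dose against vehicle at 24 h in the kidney (horizontal axis) and the liver (vertical axis), 1 point per member fitted in both organs, with all 5 liver vehicle libraries (left) and without MS-1 (right); the line marks equal change and blue marks members whose change differed between organs. The median liver log2 fold change of the tested members was 0.75 on the left and 1.53 on the right, against 1.47 in the kidney.

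The largest differences toward the kidney held either way. ENSRNOT00000016768 was at 7.47, 8.76, 8.25, 6.45, and 7.96 CPM in vehicle and 199, 211, 183, 245, and 163 CPM in high-dose kidneys. In the liver it was at 322, 43.1, 33, 27.1, and 28.9 and 179, 368, 246, 132, and 270.1 CPM. The ranges of the treated organs overlapped, while 4 of the 5 vehicle livers stood above the vehicle kidneys at 27.1 to 43.1 CPM and MS-1 stood higher still. The difference was -3.71 (SE 0.68, adjusted p = 9.9e-04) with MS-1 and -2.55 (SE 0.27, adjusted p = 3.7e-06) without it. ENSRNOT00000019192 held 95.1, 23.9, 17.6, 17.8, and 13.8 CPM in vehicle and 167, 258, 197, 133, and 271 CPM in high-dose livers, and differed by -3.57 (SE 0.52, adjusted p = 1.4e-04) with and -2.94 (SE 0.32, adjusted p = 5.0e-06) without MS-1. ENSRNOT00000055333, which fell in the liver, differed by -2.28 (SE 0.55, adjusted p = 0.00752) and, without MS-1, by -2.33 (SE 0.57, adjusted p = 0.00619).

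In the other direction ENSRNOT00000016152 differed by 6.07 (SE 1.37, adjusted p = 0.00480) with MS-1 and by 6.18 (SE 1.50, adjusted p = 0.00563) without it. Its kidney vehicle samples held 1.86, 70.7, 1.89, 0.934, and 1.94 CPM against 1.94, 2.36, 1.74, 1.23, and 2.20 CPM after the high dose, with 1 vehicle kidney, MS-34, far above all others of both groups. Without MS-34 the difference was 2.80 and was still called (adjusted p = 4.5e-04 by edgeR). Without MS-1, ENSRNOT00000077186 and ENSRNOT00000025856 changed more in the liver. ENSRNOT00000077186 had 3.87, 4.91, 5.39, 4.56, and 2.70 CPM in vehicle and 12.6, 8.39, 9.55, 8.52, and 4.26 CPM in high-dose kidneys, and the 2 groups overlapped. The difference from the liver was 4.17 (SE 0.53, adjusted p = 2.1e-05) without MS-1 and 2.87 (SE 0.76, adjusted p = 0.0139) with it. ENSRNOT00000025856 held 6.90, 0.317, 0.438, 0.168, and 0.164 CPM in vehicle and 20.2, 24.8, 12.5, 7.63, and 16.5 CPM in high-dose livers. In the kidney it held 4.24, 6.66, 4.53, 6.22, and 5.30 and 18.7, 12.4, 11.1, 11.1, and 14.6 CPM, with a difference of 3.87 (SE 0.43, adjusted p = 5.6e-06) without MS-1 and 1.68 (SE 0.89, adjusted p = 0.234) with it.

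At 24 h after the low dose the calls in the liver again turned on MS-1, and the kidney held none by edgeR. In the kidney 0 of 170 tested members rose by edgeR, where 0.0377% of all transcripts did. At an unadjusted p under 0.05, 56 were higher and 1 lower (5.88% and 5.58% of all transcripts tested), DESeq2 called 12 higher (0.286% of all), and the median log2 fold change was 0.39. One library, MS-35, was the highest of the 5 low-dose kidneys for 59.7% of the 181 members and for 25.5% of transcripts with a mean of 1 CPM or more. ENSRNOT00000000628 held 14, 71.9, 25.6, 7.94, and 8.47 CPM and ENSRNOT00000027891 held 1.54, 11.9, 2.62, 1.02, and 0.842 CPM in these kidneys. ENSRNOT00000005085 held 4.67, 32.8, 7.43, 3.11, and 4.34 CPM. In each of the 3, MS-35 stood far above the other 4 low-dose kidneys. Without MS-35 the median L of the members was 0.17, and with it 0.29.

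In the low-dose liver at 24 h 1 of 167 tested members rose with all 5 vehicle libraries, against 0.96% of all transcripts, and the median log2 fold change was -0.21. Without MS-1, 49 of 169 rose, against 4.89%, and the median was 0.64, so that the sign of the median turned with this library. The member called with MS-1 was ENSRNOT00000016152, at 3.45, 2.15, 2.63, 3.95, and 3.14 CPM after the low dose, with a log2 fold change of 3.00 (SE 0.31, adjusted p = 0.00149). Without MS-1 the 4 that rose most without overlap were ENSRNOT00000091731 (4.48), ENSRNOT00000027891 (4.32), ENSRNOT00000000792 (4.31), and ENSRNOT00000000628 (3.74), on the log2 scale. With MS-1 their log2 fold changes were 0.82, 1.26, 0.50, and 0.64, with adjusted p of 0.709, 0.510, 0.836, and 0.768. All 4 were also among the members named in the kidney or the high-dose liver.

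The heart, which took no part in the choice of members, held fewer called members at the high dose than the kidney. In the heart, 32 members at 8 h and 29 at 24 h did not pass the filter on low counts after the high dose. The heart counts and medians leave them out, while 4 members were left out in the kidney at 24 h. At 8 h 1 of 149 tested members rose, where 0.0171% of all transcripts did, and the median log2 fold change was 0.24. At an unadjusted p under 0.05, 60 were higher and 3 lower (5.30% and 4.39% of all transcripts tested), and DESeq2 called 16 higher (0.205% of all). The member called was ENSRNOT00000028066, at 10.8, 7.16, 6.18, 8.14, and 6.70 CPM in vehicle and 21.3, 32.2, 25.5, 22.8, and 25.7 CPM in high-dose hearts. Every treated heart lay above every vehicle heart, and the log2 fold change was 1.68 (SE 0.16, adjusted p = 0.00203). That call was lost when any 1 of 5 of the 10 libraries was left out.

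At 24 h 15 of 152 tested members rose in the high-dose heart, where 0.677% of all transcripts rose, and the median log2 fold change was 0.25. At an unadjusted p under 0.05, 66 were higher and 10 lower (10.9% and 9.99% of all transcripts tested), and DESeq2 called 21 higher (1.14% of all). All 15 also rose in the kidney at 24 h, and 14 of them in the liver without MS-1, while with MS-1 kept 1 did, ENSRNOT00000019192. Of the 119 transcripts that rose in the heart in all, 32.8% rose in the kidney, and 43.7% rose in the liver without and 23.5% with MS-1. ENSRNOT00000003940 held 3.47, 3.94, 3.66, 2.40, and 1.93 CPM in vehicle and 14.7, 13.7, 7.41, 10.6, and 7.04 CPM in high-dose hearts, a log2 fold change of 1.81 (SE 0.26, adjusted p = 0.00238). ENSRNOT00000003075 held 2.92, 1.83, 1.96, 1.96, and 2.50 and 4.80, 6.59, 5.90, 4.92, and 11.7 CPM, a log2 fold change of 1.62 (SE 0.26, adjusted p = 0.00408). Its treated hearts lay above all vehicle hearts, with 1 far above the other 4. ENSRNOT00000077856 held 4.02, 4.44, 4.54, 3.76, and 6.72 and 16, 9.70, 13.9, 17.1, and 10.8 CPM, a log2 fold change of 1.55 (SE 0.20, adjusted p = 0.00144). ENSRNOT00000074586 held 8.86, 10.3, 9.12, 13, and 16.6 and 30.4, 48.9, 20.3, 22.6, and 38.1 CPM, a log2 fold change of 1.49 (SE 0.26, adjusted p = 0.00662). In none of these did vehicle and treated hearts overlap.

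ENSRNOT00000019192 and ENSRNOT00000000628, of the 4 members that rose most in the kidney at 24 h, rose in the heart as well, as did ENSRNOT00000091731. For ENSRNOT00000019192 the vehicle hearts held 22.3, 16.2, 23.5, 27.3, and 25.0 CPM and the high-dose hearts 53.9, 83.9, 40.4, 69.2, and 68.6. Its log2 fold change was 1.48 (SE 0.19, adjusted p = 0.00145) in the heart, against 5.60 in the kidney. ENSRNOT00000027891, which changed most in the kidney, changed by -0.81 (SE 0.32, adjusted p = 0.173) in the heart. After the low dose no tested member rose in the heart by edgeR, with 0% of all transcripts called higher at 8 h and 0% at 24 h. At an unadjusted p under 0.05, 16 members were higher and 3 lower at 8 h, of 150 tested (2.06% and 1.87% of all transcripts tested). At 24 h 25 were higher and 7 lower, of 151 tested (5.19% and 3.98% of all transcripts tested), and DESeq2 called none higher at either time.

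Kidney libraries with numbers above 90 were spread unevenly, as 3 of the 5 high-dose and 1 of the 5 vehicle kidneys at 8 h. Among kidney libraries numbered up to 90, the median L of the members at 8 h was 1.32, and among those above 90 it was 1.47. The rule used all of these libraries, so the values are a description.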

How the data were processed

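RNA was measured by poly-A RNA sequencing in 90 libraries, 5 for each of 18 groups, with liver, kidney, and heart taken from the same rats. Per the study's methods, reads were pseudo-aligned with kallisto to the Ensembl rat transcriptome of Rnor_6.0, and the submitters' processing notes give version 0.42.2. The authors deposited 1 table per library with estimated counts and TPM (counts scaled by transcript length and library total) for each target, and no replicates were pooled. Targets are Ensembl transcripts and genomic intervals, and only the transcripts were used here. TPM entered the limma alternatives and the comparison of levels between transcripts.

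CPM and L were computed from the estimated counts with Python 3.11.15, numpy 2.4.6, and pandas 2.3.3, and figures were drawn with matplotlib 3.10.9. The estimated counts were rounded and tested over all transcripts with edgeR 4.0.16 (R 4.3.3; TMM, filterByExpr, quasi-likelihood test, Benjamini-Hochberg adjustment). Calls needed an adjusted p of at most 0.01 and a natural-log fold change of at least 0.6 in size (0.866 on the log2 scale), and the organ comparison needed the adjusted p alone. The fit was tested on simulated data. Alternatives were DESeq2 1.42.0, limma 3.58.1 on log2(TPM + 1) or log2(TPM + 0.1), no filter on low counts, other definitions of L, and each replicate left out. Counting depth limits low transcripts, and bounds set on counts cover counting error only. P-values within an organ measure the spread between rats of a group. In the organ comparison they treat liver and kidney libraries of the same rats as independent. With MS-1 kept, the spread of the vehicle livers at 24 h includes a library with nearly the counts of MS-9.

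The members and the rule for named transcripts were chosen with earlier results of these data known. Named were the 10 members with the largest smaller L, the 3 highest in vehicle CPM per organ, the 3 on either side of the threshold, and the 3 highest and 3 lowest in the ratio of low-dose to high-dose L. For each test the 4 largest rises and 2 largest falls were named among called members with a mean of at least 1 CPM and no overlap, as were the 3 largest organ differences each way. Other named transcripts were chosen after their values were seen. Prepared gene and marker lists were not used, because 0 rows of the RefSeq gene table carry an Ensembl transcript identifier.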

Additional observations from a re-analysis of the deposited data

Results flagged for a closer look

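A sample was listed here when it lay apart from the other 4 of its group by Dixon's ratio, a measure of the gap to the nearest value over the range of the group. It was computed for 127 sets of 5 values, those printed and the medians over the members, and 25 were listed, where chance alone lists about 1 in 20. Many of them share a library. For the median of log2(CPM + 1) over the members, MS-9 stood apart in the low-dose livers at 8 h (4.43), MS-1 in the vehicle livers at 24 h (4.43), and MS-73 in the vehicle hearts at 8 h, where it was the lowest (2.32).

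MS-1 also stood apart, above the other vehicle livers at 24 h, for single members. It held 322 CPM of ENSRNOT00000016768 and 191 CPM of ENSRNOT00000000628. It held 30.0 CPM of ENSRNOT00000027891, 38.8 CPM of ENSRNOT00000091731, and 95.1 CPM of ENSRNOT00000019192. Its lower values were 4.39 CPM of ENSRNOT00000077186, 0.884 CPM of ENSRNOT00000043959, and 1.02 CPM of ENSRNOT00000005553. MS-34 stood apart among vehicle kidneys at 24 h with 70.7 CPM of ENSRNOT00000016152. For ENSRNOT00000072176 MS-1 held 2.49 CPM and for ENSRNOT00000025856 6.90 CPM.

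MS-35 stood apart in the low-dose kidneys at 24 h, with 32.8 CPM of ENSRNOT00000005085, 71.9 CPM of ENSRNOT00000000628, and 11.9 CPM of ENSRNOT00000027891. In the vehicle livers at 8 h MS-13 stood apart for ENSRNOT00000005085 (3.46 CPM), and MS-28 for ENSRNOT00000029994 (0.338 CPM) and ENSRNOT00000017181 (6.34 CPM). In the kidney at 8 h MS-100 stood apart among vehicle samples for ENSRNOT00000006188 (10.05 CPM), and MS-102 was the lowest high-dose sample for ENSRNOT00000041456 (4.53 CPM). MS-91 was the lowest high-dose liver at 24 h for ENSRNOT00000043959 (2.07 CPM). In the heart at 24 h MS-86 stood apart among high-dose samples for ENSRNOT00000003075 (11.7 CPM) and MS-81 among vehicle samples for ENSRNOT00000077856 (6.72 CPM).

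The effect of the high dose at 24 h differed between liver and kidney for 15 of 181 members in edgeR's interaction test with MS-1 kept. That test called 7.75% of all transcripts. As liver minus kidney on the log2 scale, the differences were -3.71 for ENSRNOT00000016768, -3.57 for ENSRNOT00000019192, -2.28 for ENSRNOT00000055333, and 6.07 for ENSRNOT00000016152. Without MS-1 they were 4.17 for ENSRNOT00000077186 and 3.87 for ENSRNOT00000025856.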

How the results depend on the processing

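The number of members, 181, moved most with the pseudocount, which at 0.1 CPM gave 520. It was 308 with TPM in place of CPM, 354 with only kidney libraries numbered above 90, and 113 without members that fell under the threshold when the 2 highest high-dose libraries were left out, the last 2 settings being chosen after seeing the data. Leaving out the highest treated libraries can only lower L, so the direction of that last change was fixed. Leaving out each replicate gave 160 to 203. With median CPM, L of ENSRNOT00000057587 in the liver was -0.051. The next values are shares of the 181 members. In the high-dose liver at 24 h, 3.31% rose by edgeR, 7.18% by DESeq2, 45.9% by limma on log2(TPM + 1), and 44.8% on log2(TPM + 0.1), which called 31.3% and 39.5% of all transcripts, with 1.66% to 58.6% over the replicates left out, the highest without MS-1. Among all transcripts tested there, edgeR called 7.44% and DESeq2 8.73% higher, and edgeR 13.2% without MS-1. Members that fell were 1.10% and 0.552% by limma on these scales and 1.66% to 3.31% over replicates. For all transcripts tested the shares that fell were 2.66% and 2.93% by limma, and 8.85% by edgeR. In the high-dose kidney members that fell were 0.552% with no filter and 0% to 1.10% over replicates, while every setting kept the number that rose within 1.5 times. With the filter and every library kept, edgeR called 2.04% of all transcripts lower and 2.15% higher. In the low-dose liver 1.10% rose by DESeq2, 3.87% and 3.31% by limma, and 0.552% to 27.1% over replicates, the highest again without MS-1. Shares over all transcripts were 2.92% by DESeq2, 7.69% and 10.7% by limma, and 0.96% by edgeR, or 4.89% without MS-1. In the low-dose kidney 6.63% rose by DESeq2 (0.286% of all transcripts) and 0% to 0.552% over replicates (0.0377% of all with every library kept). In the high-dose heart at 8 h 8.84% rose by DESeq2 and 0% to 0.552% over replicates. DESeq2 called 0.205% of all transcripts there, and edgeR 0.0171% with every library kept. At 24 h 4.42% rose by limma on log2(TPM + 1), with 4.42% to 9.39% over replicates, the lowest without vehicle replicate 2. Over all transcripts the shares were 0.455% by that limma fit and 0.677% by edgeR. Liver and kidney differed for 5.52% to 19.3% over replicates, the highest without MS-1. For all transcripts this was 7.75% with every library kept and 13.7% without MS-1. ENSRNOT00000000792 in the low-dose liver at 24 h ranged from -0.069, without low-dose replicate 2, to 4.31 on the log2 scale, without MS-1. Of 538 alternative values for named transcripts, 466 kept their direction and side of the threshold or moved by less than 1 SD, 43 lost and 17 gained the call, 10 moved, and 2 reversed. The causes of these changes were not tested. No paired analysis was run, because the replicate numbers follow accession order and the labels do not state which libraries share a rat.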

Other observations

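The libraries that carried ENSRNOT00000057587 above 10 CPM were listed by number after the values were seen. At 8 h the high-dose libraries were MS-14 and MS-17 in the liver, MS-101 and MS-102 in the kidney, and MS-74 and MS-77 in the heart. The low-dose libraries were MS-18, MS-48, and MS-78. Among vehicle samples at 24 h they were MS-4 and MS-21 in the liver, MS-31, MS-34, and MS-51 in the kidney, and MS-61, MS-64, and MS-81 in the heart. The labels do not state which libraries share a rat, and MS-1 held none of this transcript.

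ENSRNOT00000016152 was above 10 CPM in MS-17, MS-102, MS-77, MS-34, and MS-64, each of which also carried ENSRNOT00000057587.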
